A study of Ovis aries with 6 samples.

Results

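The vessel wall miRNAs miR-126, miR-143, miR-145 and miR-218 were followed through small RNA libraries of sheep longissimus muscle, the long muscle of the back. The rule for the members used names and no measured value. After the species prefix was removed, a name was kept if it read miR-126, miR-126a, miR-126b, miR-143, miR-145, miR-145a, miR-145b, miR-218 or miR-218a, with or without an arm (3p or 5p, the side of the hairpin a mature miRNA comes from). This gave 15 of 10430 names, from 24 of 11161 listed rows, and where several rows carried 1 name the one with most counts was kept. There were 3 libraries of Qianhua Mutton Merino (QHMM) sheep, and 3 more of Small Tail Han (STH). QHMM is a Merino kept for meat and STH is a prolific Chinese breed. Both were kept under natural conditions, and breed was the only difference the labels give. They state neither age nor sex, nor if the libraries are of separate animals, so that each p-value takes its error from the spread between libraries, which may be technical.

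A miRNA is cut from a hairpin transcript, and its seed (bases 2 to 8) directs the silencing of mRNAs that pair with it. Textbook knowledge places these miRNAs in the wall of blood vessels. miR-126 comes from an intron of EGFL7, a gene of endothelial cells, and supports their response to vascular growth factor. miR-143 and miR-145 come from 1 transcript of smooth muscle cells and pericytes, where they favour the contractile state. miR-218 comes from introns of the SLIT guidance genes and acts on their ROBO receptors, which also pattern vessels. None of them is limited to vessels, and which cells of the muscle the reads came from was not measured.

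The sequences below carry the results, as listed in the deposited counts in DNA letters, 5′ to 3′, with the seed in capitals. They show how the rows compared differ in sequence.
miR-126a-3p: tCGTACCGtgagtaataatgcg
miR-126a-5p: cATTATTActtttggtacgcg
miR-126b: tACCAAAAgtaataatgtgctg
miR-143: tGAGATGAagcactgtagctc
miR-145-5p: gTCCAGTTttcccaggaatccc
miR-145-3p: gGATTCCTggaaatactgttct
miR-218a: tTGTGCTTgatctaaccatgt
No seed was shared between them, and the lead rows held between 97.9% (miR-145-3p) and nearly all of the counts of their seed in the table. miR-143 and miR-218a stand under sheep names. miR-126a-3p, miR-126a-5p and miR-126b stand under rat names, while miR-145-5p and miR-145-3p are the arms of 1 predicted sheep locus on chromosome 5 that carries a rat and a human name. miR-143 and miR-218a carry no arm in their names, and by sequence miR-143 matched the 3p arm and miR-218a the 5p arm. In the RefSeq gene table of assembly ARS-UI_Ramb_v3.0, which differs from the build Oar_v3.1 of the counts and was used for neighbours only, MIR218A overlapped SLIT3 and MIR143 lay between IL17B and CSNK1A1. MIR143 also overlapped LOC114114896. EGFL7 was listed between AGPAT2 and NOTCH1, while MIR126 and MIR145 were not listed, so their places were not checked.

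The 4 miRNAs made up a sizeable share of the small RNA of the muscle. Counts were scaled to CPM, the count per 1000000 counts of a library over names with 1 row each, which ran from 5572865 to 7930202 counts. All members together took 6.12%, 7.68% and 4.81% of these counts in QHMM, in the order of replicates 1 to 3 kept throughout, and 8.45%, 7.26% and 6.82% in STH. QHMM replicate 3 was lowest and STH replicate 1 highest, and the breeds overlapped. These shares include miR-126b, whose counts are taken up below. The other 6 names with a sequence shown above took 5.77%, 7.21% and 4.53% in QHMM and 7.84%, 6.80% and 6.37% in STH. In whole tissue, fewer vessel cells and less of the miRNA per cell cannot be told apart. The muscle fibre markers miR-1, miR-133, miR-206-3p, miR-208b-3p and miR-499-5p summed to 450124 to 546371 CPM per library, none of them at 0.

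Of the smooth muscle miRNAs, miR-145-5p was the most abundant member, in 5th place among all names. It had 28454, 32594 and 22953 CPM in QHMM and 37747, 31220 and 28047 CPM in STH. The values of the breeds overlapped, with STH replicate 1 above and QHMM replicate 3 below the rest. Means were 28000 ± 4837 CPM (SD) for QHMM against 32338 ± 4945 CPM (SD) for STH, n = 3 each. Its other arm, miR-145-3p, was far lower, with 125.6, 115.7 and 84.6 CPM in QHMM and 173, 118 and 123 CPM in STH. miR-143, its partner on the same transcript, had 11676, 11859 and 9429 CPM in QHMM and 15091, 11423 and 12058 CPM in STH. Here too, STH replicate 1 was highest and QHMM replicate 3 lowest. The means of miR-143 were 10988 ± 1353 CPM (SD) for QHMM against 12857 ± 1960 CPM (SD) for STH, n = 3 each, in 12th place among all names.

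Of the endothelial miRNAs, miR-126a-3p stood in 8th place. It had 13792, 22831 and 9966 CPM in QHMM and 19183, 20414 and 18717 CPM in STH. The QHMM libraries held both the highest and the lowest value of the 6, with the STH libraries close together between them. The means were 15530 ± 6606 CPM (SD) for QHMM against 19438 ± 877 CPM (SD) for STH, n = 3 each. Its other arm, miR-126a-5p, had 3523, 4589 and 2814 CPM in QHMM and 6120, 4659 and 4566 CPM in STH. Only QHMM replicate 2 reached into the range of STH. Its means were 3642 ± 894 CPM (SD) for QHMM against 5115 ± 872 CPM (SD) for STH, n = 3 each.

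miR-218a, from the SLIT genes, was low by comparison. It had 97.0, 143.2 and 79.7 CPM in QHMM and 70.9, 142 and 153 CPM in STH, in 181st place. The lowest value was that of STH replicate 1, the library with the highest miR-145-5p and miR-143. The means were 107 ± 32.8 CPM (SD) for QHMM against 122 ± 44.8 CPM (SD) for STH, n = 3 each.

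**Figure D1:**
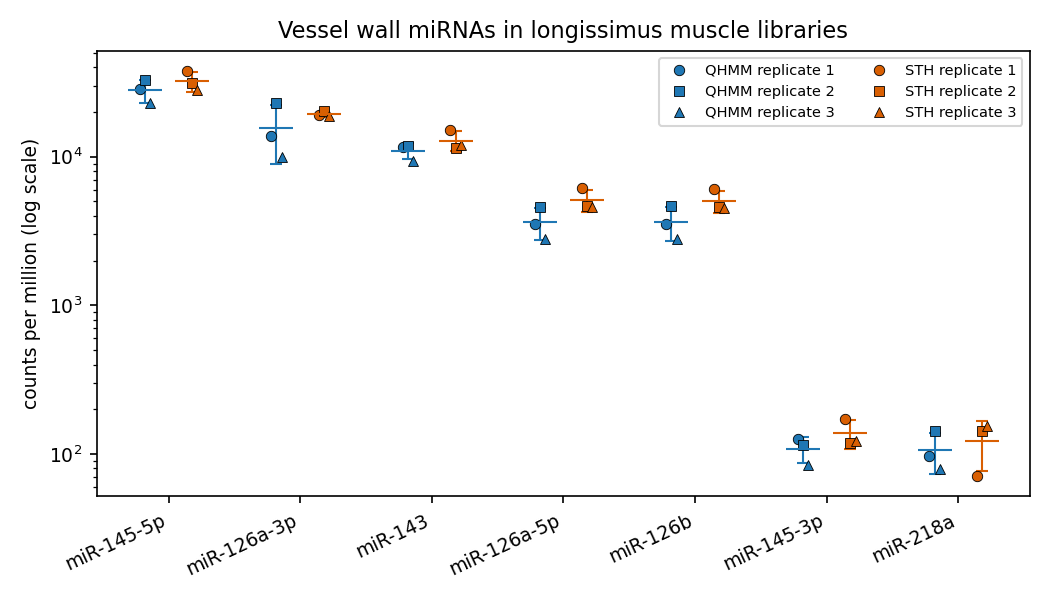
CPM on a log axis of the 7 most abundant member names in each of the 6 libraries, with horizontal marks and bars for the mean and SD of the 3 libraries of a breed. The breeds overlap for every name, and miR-145-3p and miR-218a lie far below the others, near 100 CPM.

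The order of the levels was stable at the top. miR-145-5p exceeded miR-126a-3p in 6 of 6 libraries, by 1.43 to 2.30 times, and miR-126a-3p exceeded miR-143 in 6 of 6, by 1.06 to 1.93 times. miR-143 was 2.45 to 3.35 times miR-126a-5p, and miR-126a-5p was 28.0 to 39.7 times miR-145-3p, again in 6 of 6 libraries. The last neighbours, miR-145-3p and miR-218a, did not differ beyond their spread. Their ratio ran from 0.80 to 2.44, and miR-145-3p was the higher of the pair in 3 of 6 libraries. All of these sequences are 21 or 22 nt long, but how well each was captured in a library was not measured, so an order of counts need not be an order of molecules.

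Beside these names and miR-126b, the remaining 8 members had 382 counts in all over the 6 libraries. miR-143-3p, the rat name of miR-143 with 1 more base, had 264 counts, miR-126-3p had 64 and miR-145b had 35. miR-145a-5p and miR-126-5p had 6 counts each, miR-218a-5p had 4, miR-218-5p had 2 and miR-143-5p, the other arm of miR-143, had 1 count in 1 library. Such names often repeat a sequence listed elsewhere. The sequence of miR-126a-3p stood in 3 rows with 720519 counts, of which 99.98% lay in 1 row, and that of miR-218a in 4 rows with 4743 counts, of which 4736 lay in 1. How reads that match several rows were counted is not given in the sources used here.

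miR-126b had almost the same counts as miR-126a-5p in every library. Both sequences are complementary over 17 nt, shown here in capitals, so that each reads as the opposite strand of the other.
miR-126a-5p: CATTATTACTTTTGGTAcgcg
miR-126b: TACCAAAAGTAATAATGtgctg
miR-126b had 26645, 25930 and 20732 counts in QHMM, where miR-126a-5p had 26584, 25576 and 20942. In STH it had 44337, 28554 and 35867 counts, where miR-126a-5p had 44806, 28762 and 36207. The ratio was 1.002, 1.014 and 0.990 in QHMM and 0.990, 0.993 and 0.991 in STH. The share of miR-126b in the sum of the pair was 49.7% to 50.3%, and its Wilson 95% interval held 50% in 6 of 6 libraries. These intervals cover counting error only. This was not the only complementary pair with near-equal counts. Of 10 such pairs of 1 species that were complementary over at least 16 nt and had at least 250 counts in the higher row, 7 had a ratio of lower to higher of at least 0.9, all of them among the 8 rat pairs. The rat name miR-218b is also complementary to miR-218a, over 20 nt, and had 11 counts against 4736. That row of miR-218a has a sheep name, so they are no pair of 1 species. The rat row miR-218a-5p, with the sequence of miR-218a, had 4 counts. Whether reads were counted in both rows of a pair was not tested, and sums over the members below leave miR-126b out.

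**Figure D2:**
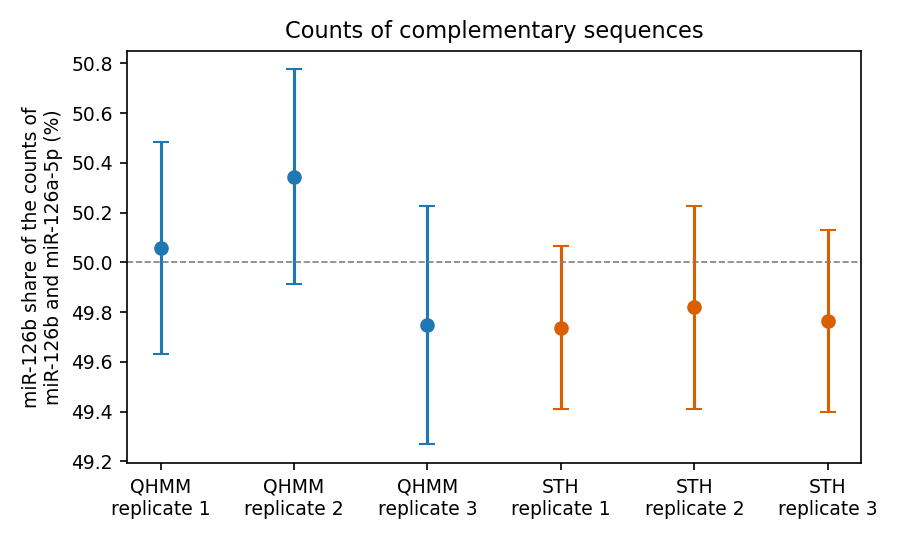
Share of miR-126b in the summed counts of miR-126b and miR-126a-5p, in percent, for each library, with Wilson 95% intervals as bars and a dashed line at 50%. The axis spans less than 2 percentage points, and all 6 intervals cross the line.

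The breeds were then compared by edgeR's quasi-likelihood test over all 1274 names with enough counts, with Benjamini-Hochberg adjustment. The question was whether the vessel miRNAs differ between a meat Merino and STH. Of the 15 members 9 were tested and 6 had too few counts, and 0 of the 9 passed an adjusted p of 0.05, where 2.2% of all names tested did (0.314% higher in QHMM and 1.88% higher in STH). None of the 9 had an unadjusted p under 0.05, where 13.7% of all names did, and DESeq2 called 0 as well. The values of the breeds overlapped for all 9 members, where 17.2% of all names tested showed no overlap.

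The log2 fold changes, QHMM over STH, were below 0 for all 9 members tested, with a median of -0.29, while 47.7% of all names tested lay below 0 and their median was 0.031. The 9 names stand for 4 miRNAs in the same libraries and are not independent values. miR-145-5p had a log2 fold change of -0.20 (95% interval -0.66 to 0.27, adjusted p = 0.725 from edgeR). miR-143 had -0.22 (-0.67 to 0.23, adjusted p = 0.687) and miR-145-3p had -0.34 (-0.97 to 0.28, adjusted p = 0.646). On the endothelial side, miR-126a-3p had -0.29 (-0.98 to 0.39, adjusted p = 0.722) and miR-126a-5p had -0.47 (-1.02 to 0.082, adjusted p = 0.441), the lowest value among the members. miR-126b had -0.45 (adjusted p = 0.469). miR-218a had -0.18 (-0.99 to 0.62, adjusted p = 0.866). Among the small names miR-143-3p had -0.20 (adjusted p = 0.834) and miR-126-3p had -0.40 (adjusted p = 0.732). Every interval held 0 and none shows that the breeds have equal levels. At this spread a level of miR-145-5p in QHMM between 0.63 and 1.204 times that in STH lay within the interval, and for miR-126a-3p between 0.51 and 1.31 times.

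The size of these values rested on single libraries, and none passed without any 1 of them. Without QHMM replicate 2 the log2 fold change was -0.43 for miR-145-5p, -0.38 for miR-143, -0.81 for miR-126a-3p (adjusted p = 0.0797 from edgeR), -0.78 for both miR-126a-5p and miR-126b, and -0.57 for miR-218a. Without QHMM replicate 3 it was -0.086 for miR-145-5p, -0.14 for miR-143, -0.066 for miR-126a-3p, -0.30 for miR-126b, -0.21 for miR-145-3p and -0.023 for miR-218a. Among the STH libraries, leaving out replicate 1 gave -0.10 for miR-145-5p, -0.12 for miR-143, -0.18 for miR-145-3p, 0.051 for miR-143-3p and -0.47 for miR-218a. For miR-218a the value was -0.0071 without STH replicate 2, -0.018 without STH replicate 3 and -0.091 without QHMM replicate 1.

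**Figure D3:**
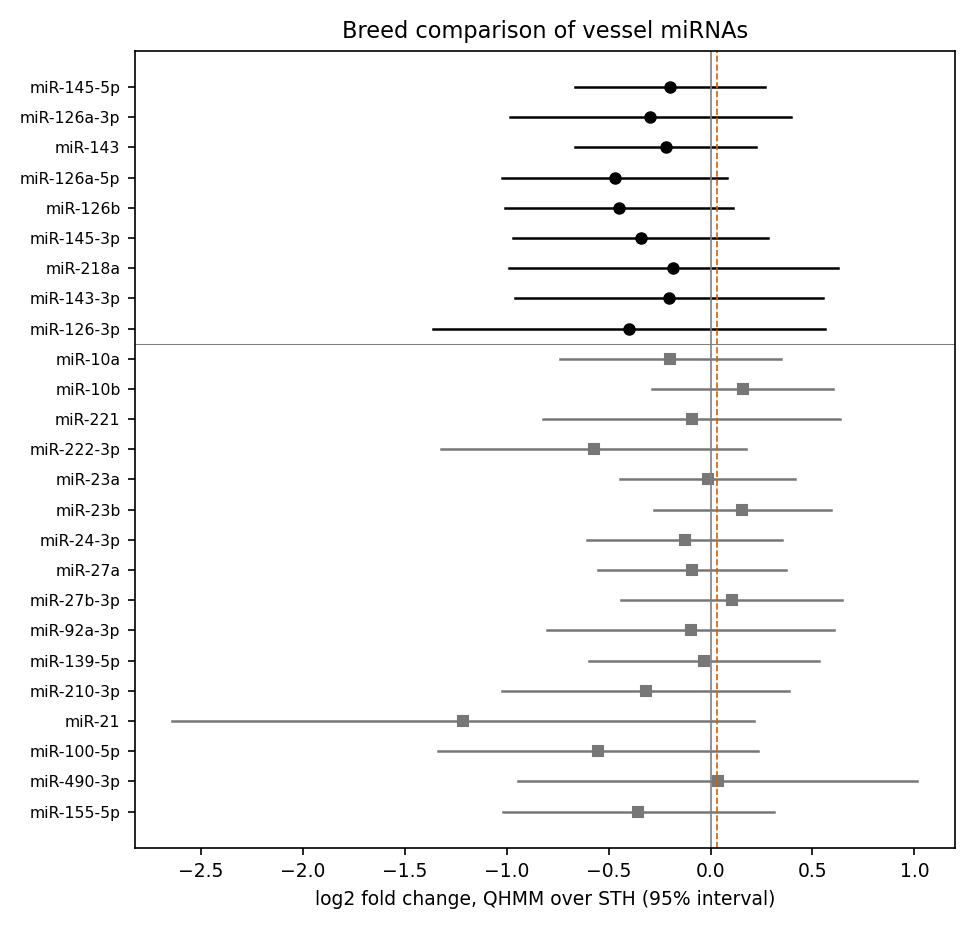
Log2 fold change, QHMM over STH, with 95% intervals for the 9 members tested (black circles, above the line) and 16 other vessel miRNAs (grey squares, below it). The dashed line is the median of all names tested, 0.031. All 9 member values lie below 0 and every member interval crosses it.

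Other miRNAs of vessels gave no call either. Of the 17 in a list of other miRNAs of endothelium and smooth muscle, all 17 were matched and 16 tested, 4 with values above 0 and 12 below. Their median was -0.095, and 0 passed edgeR's adjusted p of 0.05. By the mean over the 6 libraries miR-21 came first, although miR-10b exceeded it in 3 of them. miR-21, a miRNA of fibroblasts, smooth muscle and many other cells, had a log2 fold change of -1.21 (adjusted p = 0.429 from edgeR). miR-10b, of endothelium and other cells, had 0.16 (adjusted p = 0.768), and miR-23a and miR-23b, from clusters of endothelial miRNAs, had -0.015 and 0.16 (adjusted p = 0.979 and 0.768).

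The libraries also differed in miRNAs of blood cells. miR-451-5p, the miRNA of red blood cells, took 1.87%, 1.96% and 8.24% of the counts in QHMM and 0.708%, 1.36% and 0.834% in STH. QHMM replicate 3, with the highest share, had the lowest level of miR-145-5p, miR-126a-3p, miR-143, miR-126a-5p and miR-145-3p. The 4 red blood cell markers summed to 18967 to 84306 CPM in QHMM and 7299 to 13838 CPM in STH, none of them at 0 and with 0 of 4 past the test. With miR-451-5p taken out of the library totals, an alternative chosen after seeing the data, miR-126a-3p had 14055, 23288 and 10861 CPM in QHMM and 19319, 20695 and 18874 CPM in STH. QHMM replicate 3 was still the lowest, and the breeds still overlapped for all 6 lead names. The 4 leukocyte markers summed to 1762 to 1938 CPM in QHMM and 1162 to 1420 CPM in STH, without overlap and with 0 of 4 past the test. Singly, miR-142-3p and miR-142-5p showed no overlap, as did 17.2% of all names tested. The breeds overlapped for miR-150 and miR-223-3p, and miR-223-3p had a log2 fold change of -0.23, opposite to the sum. The part of blood in the values of the members was not tested further.

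Ratios of counts within a library need no library total. Leaving aside miR-126b over miR-126a-5p, given above, miR-145-5p over miR-143 was the steadiest of those formed. It was 2.44, 2.75 and 2.43 in QHMM and 2.50, 2.73 and 2.33 in STH, with an SD of 0.098 over the 6 libraries on the log2 scale. Both second replicates were highest and the breeds overlapped. Of the 2278 pairs among 68 names with a mean of at least 1000 CPM, 0.702% had a smaller SD, and the median SD was 0.468. The mean log2 ratio differed by 0.012 between QHMM and STH (exact permutation test, two-sided, n = 3 per breed, p = 0.90).

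Endothelial over smooth muscle miRNA varied more. miR-126a-3p over miR-145-5p was 0.485, 0.7005 and 0.434 in QHMM and 0.508, 0.654 and 0.667 in STH. miR-126a-3p over miR-143 was 1.18, 1.93 and 1.06 in QHMM and 1.27, 1.79 and 1.55 in STH. In both ratios QHMM replicates 1 and 3 were low with STH replicate 1, while QHMM replicate 2 was the highest. The differences in mean log2 ratio, QHMM minus STH, were -0.20 and -0.18 (exact permutation tests, n = 3 per breed, p = 0.60 and p = 0.70). Without QHMM replicate 2 they were -0.40 and -0.45, and without QHMM replicate 3 they were -0.055 and -0.013. miR-218a over miR-143 was 0.0083, 0.0121 and 0.0084 in QHMM and 0.0047, 0.0124 and 0.0127 in STH, with STH replicate 1 low on its own, and the difference was 0.063 (exact permutation test, p = 1). Adjusted over these 4 ratios, every p was 1, and 3 libraries against 3 allow no p below 0.10.

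The arms of a hairpin were kept in very different proportions. miR-126a-5p was 0.255, 0.201 and 0.282 times miR-126a-3p in QHMM and 0.319, 0.228 and 0.244 times in STH. miR-145-5p was 227, 282 and 271 times miR-145-3p in QHMM and 218.3, 264 and 229 times in STH. The lead arm of miR-145 thus exceeded its other arm by far more than that of miR-126 did, in each of the 6 libraries. Since sharing of reads between miR-126b and miR-126a-5p was not tested, the level of miR-126a-5p and this arm ratio carry the same doubt. Neither arm ratio differed between the breeds beyond the spread of the libraries (exact permutation tests, n = 3 per breed, p = 0.70 for miR-126 and p = 0.30 for miR-145, adjusted over both 0.70 and 0.60). No ratio was formed for miR-143, with 1 count of its other arm, or for miR-218, whose other arm stands under names the rule did not take.

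**Figure D4:**
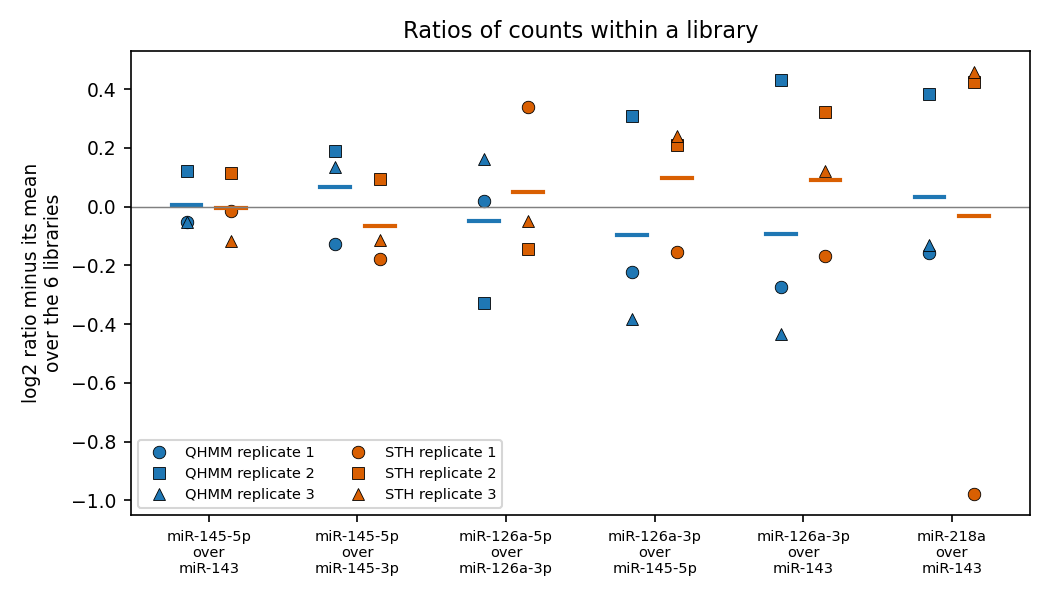
Log2 ratio of counts within a library minus its mean over the 6 libraries, for 6 ratios of member names, with horizontal marks for the mean of each breed. miR-145-5p over miR-143 spreads least, and the point far below the others is STH replicate 1 for miR-218a over miR-143.

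Levels across the 6 libraries were also compared as correlations of log2 CPM, 10 relations in all, of which none passed Benjamini-Hochberg adjustment on this scale. Within a breed, 3 libraries are too few for a value. miR-143 and miR-145-5p had Pearson's r = 0.91 (exact permutation p = 0.05, adjusted 0.204) and Spearman's rho = 0.60 (exact permutation p = 0.242, adjusted 0.806). Without QHMM replicate 3 and STH replicate 1, the libraries farthest from the median of miR-143, r was -0.35 over the 4 libraries left. Leaving out the ends of its range can lower r by itself, so this value cannot decide what the relation rests on. With library sizes scaled by TMM factors the relation passed (r = 0.95, exact permutation p = 0.0278 after adjustment over the 10). miR-126a-3p and miR-145-5p had r = 0.80 (exact permutation p = 0.0611, adjusted 0.204) and rho = 0.77 (p = 0.103 by exact permutation, adjusted 0.514), and r = 0.11 without QHMM replicates 1 and 3. miR-143 and miR-451-5p had r = -0.88 (exact permutation p = 0.0222, adjusted 0.204) and rho = -0.77 (exact permutation p = 0.103, adjusted 0.514), and r = -0.42 without QHMM replicate 3 and STH replicate 1. CPM share their total within a library, and a name at high level lowers all others.

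The names most like each lead in their pattern over the 6 libraries were taken from 194 names with a mean of at least 100 CPM, by Pearson's r of log2(CPM + 1), as a description. For miR-126a-3p these were a predicted locus on chromosome X, agaggtaaaaaattgatttgac (r = 0.976), miR-196a-5p (r = 0.906) and the muscle miRNA miR-206-3p (r = 0.881). For miR-145-5p they were a row listed as miR-3586-3p, tcgaggagctcacagtctag (r = 0.961), miR-652-5p (r = 0.942) and miR-151a-3p (r = 0.940). A rat row named miR-3586-3p is complementary to rat miR-151-5p over 21 nt, and the name of the row listed here was not checked. This row and miR-151a-3p both lay on chromosome 9, and whether they are arms of 1 hairpin was not tested. For miR-143 they were a predicted locus on chromosome 7, aaaacacgaacaaacttttcg (r = 0.878), miR-19b (r = 0.872) and miR-374a (r = 0.853). For miR-218a they were miR-1, the main miRNA of muscle fibres (r = 0.940), miR-139-5p (r = 0.791) and miR-30b (r = 0.655). No name stood in the first 3 places of more than 1 lead.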

How the data were processed

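Small RNA of longissimus muscle was extracted with Trizol, size-selected on a gel and sequenced single-end on an Ion Torrent system. The authors deposited raw counts per mature sequence without normalization, 1 column per library, with totals of 8062231 to 10276427 in QHMM and 8681817 to 11282332 in STH. The submitters' processing notes name Oar_v3.1 and DESeq. For the aligner, the caller and the rule on reads with more than 1 match, a statement was not given in the sources used here. Groups were taken from the sample titles.

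CPM, ratios and exact tests were computed with scipy 1.17.1, numpy 2.4.6 and pandas 2.3.3 (Python 3.11.15). Breeds were compared in R 4.3.3 with edgeR 4.0.16 (robust quasi-likelihood fit, TMM factors, filterByExpr, no covariates). The steps were tested on simulated counts. Alternatives were other factors and filters, DESeq2 1.42.0, a replicate block, other treatments of rows of 1 name, and each library left out. The members and lists were chosen with earlier results of these data known. Named miRNAs were all members with a count, the 3 names most like each lead, and for each of 5 lists the 4 most abundant members and any past the threshold. List names were matched by equal name, by name without arm or with the letter a, or by alias, taking the row with the highest total, a choice settled after the names were seen. The alias miR-1b stood for miR-1 and miR-133 for miR-133a-3p, and miR-133b was not analysed here.

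For the other lists, 1 of 5 muscle fibre names tested passed (miR-208b-3p, log2 fold change 1.27, adjusted p = 0.0419 from edgeR) and 0 of 4 connective tissue names.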

Additional observations from a re-analysis of the deposited data

Results flagged for a closer look

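Rows of miR-145-5p that were not kept for the name held counts of a shorter sequence. Such a row on chromosome X, gtccagttttcccagga, with 17 nt identical to the first 17 nt of the lead sequence, had 24665 counts over the 6 libraries, 1.96% of the lead row and 1.52% to 2.17% per library. The same sequence on chromosome 3 had 4984 counts, 0.396% of the lead row. Both lay above the limit of 3 counts that a count of 0 allows, and neither entered the comparison with 1 row per name.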

How the results depend on the processing

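The number of members called was 0 under every alternative run. The number called among all names, 28, was 64 without any filter, 8 where each library had to hold at least 10 counts, 49 with DESeq2, 6 with known names only and between 16 and 35 when single libraries were left out. The cause was not tested. With the replicate block it was 26, 22 of them among the 28, and the block called no member. Deviations from the breed means had correlations of 0.061, 0.239 and 0.119 between libraries of the same number. For each number this was the highest value, which is a hint in the values and no part of the design. The log2 fold changes of the members kept their sign under all alternatives run, except that of miR-143-3p, which lay between -0.37 and 0.051 when single libraries were left out. The mean summed level of the members without miR-126b, 64201 CPM, was 46145 CPM over all rows and 46672 CPM with rows of 1 name summed, since both enlarge the total. With each library left out, the breed difference in log2 ratio ran from -0.20 to 0.047 for the miR-126 arms (0.041 without QHMM replicate 2 and 0.047 without STH replicate 1), from -0.046 to 0.072 for miR-145-5p over miR-143 (-0.046 without QHMM replicate 2 and -0.044 without STH replicate 3), from -0.40 to -0.055 for miR-126a-3p over miR-145-5p, from -0.45 to -0.013 for miR-126a-3p over miR-143 and from -0.41 to 0.31 for miR-218a over miR-143 (-0.11 without QHMM replicate 2 and -0.41 without STH replicate 1). On the TMM scale r was 0.95 for miR-143 and miR-145-5p (exact permutation p = 0.0278 after adjustment) and 0.19 for miR-143 and miR-218a. Without the 2 libraries farthest from the median, r was -0.43 for miR-126a-3p and miR-143, -0.35 for miR-143 and miR-145-5p, 0.31 for miR-143 and miR-218a, 0.94 for miR-126a-3p and miR-451-5p and 0.54 for miR-145-5p and miR-451-5p. The cause of these changes was not tested. The 6 names not tested had too few counts. Of these, miR-126-5p, miR-218a-5p and miR-218-5p repeat a lead sequence whose counts stand almost wholly in another row. miR-145a-5p adds 1 base to the lead sequence of miR-145-5p. The spread of 3 libraries limits the names tested.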

Other observations

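A predicted locus without a name on chromosome 15, gtccagtttcccaggaatc, shares a run of 13 nt with miR-145-5p and had 7912 counts, 0.629% of the lead row. Rows near a lead, with a shared run of at least 13 nt, were summed without the other member names kept. Near miR-145-5p, 13 such rows, its shorter rows among them, had 38531 counts, against at most 292 near any other lead.

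miR-218a-1-3p, a name of the other arm of miR-218a that the rule on names did not take, had 85 counts, with 6, 24 and 9 in QHMM and 15, 14 and 17 in STH. Its log2 fold change was -0.044 (adjusted p = 0.979 from edgeR).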
